A study of Homo sapiens with 8 samples.

Results

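The genes of the epidermal growth factor receptor (EGFR) family, their ligands, the receptor MET and the receptor inhibitor ERRFI1 were measured in docetaxel sensitive and resistant prostate cancer cell lines. The 10 genes were taken by their symbol from the count tables, which held 60554 gene rows, and were the receptors EGFR, ERBB2, ERBB3 and MET, the ligands AREG, EREG, HBEGF, TGFA and NRG1, and ERRFI1. All 10 passed the filter on low counts that left 20238 genes for testing. NRG1 passed it through DU145 sensitive cells, the 1 group in which it was high, so its call in a comparison with that group is no independent support, and it is counted among the calls only for completeness.

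The data were 8 bulk RNA-seq libraries in 4 groups of 2, from human DU145 cells (a line from a brain metastasis) and PC3 cells (a line from a bone metastasis). Per the labels, the resistant variants were kept in medium with 10 nM docetaxel, a drug that stabilises microtubules, and the sensitive cells in medium with 0.1% DMSO, the solvent of the drug. All cells grew in RPMI medium with fetal bovine serum and antibiotics and were detached with trypsin before RNA was taken, so resistance and culture in the drug cannot be told apart here. Each line was represented by 1 sensitive and 1 resistant population, and the sources used here do not say whether a resistant population was 1 clone. For the single cell libraries of these variants, the study's methods describe a period without docetaxel before harvest, and whether this was done for the bulk libraries is not stated in those methods or the labels. No source used here tells whether the paired libraries of each group were grown as separate cultures. The p-values therefore rest on the spread between libraries, and that spread may be technical.

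In the ERBB family, a ligand bound to the outside of the cell brings receptors together in pairs whose kinases then phosphorylate each other and switch on the RAS-MAPK and PI3K pathways. The ligands are made as precursors in the cell membrane and are released by ADAM proteases, which allows a cell to act on itself or on its neighbours. AREG and TGFA bind EGFR, HBEGF and EREG bind EGFR and ERBB4, and NRG1 binds ERBB3 and ERBB4. ERBB2 has no known ligand and serves as a partner, ERBB3 has a very weak kinase, and MET is the receptor of hepatocyte growth factor (HGF). ERRFI1, also called MIG6, binds the kinase of EGFR and ERBB2 and blocks it, and its own transcription is raised by the pathway.

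Total counts ran from 31685148 to 43045127 per library, and the 2 libraries of each group differed beyond what counting alone gives (chi-square over degrees of freedom 18.4 to 47.9). Levels are given as CPM (counts scaled to the library total and by TMM, edgeR's normalization between libraries), and as RPKM (CPM per kilobase of exon) where genes are compared with each other. Of 7 epithelial markers, all had at least 1 CPM in a DU145 sensitive library, whereas CDH1 and ESRP1 were under 1 CPM in both DU145 resistant libraries and ESRP1 in both PC3 sensitive libraries. The summed epithelial level was 2530 to 4218 CPM in DU145 sensitive, 245.8 to 413.5 CPM in DU145 resistant, 861.4 to 962.5 CPM in PC3 sensitive and 1246 to 1383 CPM in PC3 resistant libraries. Among the epithelial markers, 6 of 7 were lower in DU145 resistant cells, against 15.4% of all genes tested (edgeR adjusted p under 0.05). In PC3 resistant cells 3 of 7 were higher, against 18.6% of all genes. The part of this shift in the results was not tested. The prostate luminal genes KLK2 and KLK3 were under 1 CPM in every library. Leukocyte markers summed to 0.90 to 8.69 CPM, fibroblast markers to 5.30 to 36.4 CPM and endothelial markers to 0.33 to 49.3 CPM, the last led by KDR and PECAM1 in PC3 resistant libraries, where PECAM1 had 12.6 and 24.4 CPM. In bulk libraries, fewer cells that use a gene and less RNA per cell cannot be told apart.

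The promoters of the 4 EGFR ligands are shown because these ligands carried the largest well counted differences among the 10 genes and the pair EREG and AREG lie side by side. On GRCh38, EREG (chr4:74365145-74388749, plus strand) and AREG (chr4:74445136-74455005, plus strand) are 56.4 kb apart with no coding gene between them, HBEGF lies at chr5:140332843-140346603 on the minus strand, and TGFA lies at chr2:70447284-70554193 on the minus strand. The 250 bases before each RefSeq start site (GRCh38.p14) are EREG chr4:74364895-74365144, AREG chr4:74444886-74445135, HBEGF chr5:140346604-140346853 and TGFA chr2:70553827-70554076, the outermost of its 2 listed starts. Each is written 5′ to 3′ on the strand of its gene, and capitals mark 3 motifs. They are the TATA box, spelled TATAAA, the GC box, spelled GGGCGG, and the cyclic AMP response element, spelled TGACGTCA, each searched on either strand.
EREG: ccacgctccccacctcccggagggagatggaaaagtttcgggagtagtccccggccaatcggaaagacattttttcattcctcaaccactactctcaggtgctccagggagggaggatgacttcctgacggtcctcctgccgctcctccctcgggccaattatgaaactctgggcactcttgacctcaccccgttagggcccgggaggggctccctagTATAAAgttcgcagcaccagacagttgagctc
AREG: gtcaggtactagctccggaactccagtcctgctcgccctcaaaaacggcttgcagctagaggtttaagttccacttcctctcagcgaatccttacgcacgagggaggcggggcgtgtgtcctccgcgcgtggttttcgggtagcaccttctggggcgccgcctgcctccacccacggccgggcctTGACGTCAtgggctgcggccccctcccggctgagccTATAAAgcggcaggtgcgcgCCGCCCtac
HBEGF: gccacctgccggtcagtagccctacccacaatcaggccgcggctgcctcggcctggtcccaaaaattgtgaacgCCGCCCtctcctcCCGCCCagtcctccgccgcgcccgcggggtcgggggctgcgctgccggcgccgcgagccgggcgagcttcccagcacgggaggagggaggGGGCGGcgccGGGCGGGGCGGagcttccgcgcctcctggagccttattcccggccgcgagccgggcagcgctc
TGFA: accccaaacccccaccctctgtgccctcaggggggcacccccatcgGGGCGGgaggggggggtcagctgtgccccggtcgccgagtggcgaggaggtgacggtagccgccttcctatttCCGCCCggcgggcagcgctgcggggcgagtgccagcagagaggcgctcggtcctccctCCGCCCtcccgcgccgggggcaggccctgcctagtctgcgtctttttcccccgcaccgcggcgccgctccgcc

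In these windows EREG and AREG each held a TATA box, at 32 and 29 bases before the start site, and HBEGF and TGFA held none. HBEGF held 5 GC boxes, of which 2 overlapped each other, TGFA held 3 and AREG held 1, and AREG alone of the 4 held the cyclic AMP response element, 65 bases before its start. The same 250 bases before the start were searched on both strands in the 35116 promoter windows of the RefSeq table. Of these, 10.7% held a TATA box, 42.6% a GC box and 1.65% the cyclic AMP response element. An AP-1 site (TGANTCA) was held by 6.57% and by none of the 4. These matches describe letters only. The table listed 8 of the 10 genes, and ERBB3 and NRG1 were not among them.

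The first question was which of these genes differed between docetaxel resistant and sensitive DU145 cells. In DU145, resistance went with a steep rise of the ligands TGFA and HBEGF, a fall of the receptors ERBB2 and ERBB3 and a near loss of NRG1, while EGFR, MET, AREG, EREG and ERRFI1 did not pass the test. Of the 10 genes, 2 were higher, against 12.4% of all genes tested, and 3 were lower, NRG1 among them, against 15.4% (edgeR quasi-likelihood test, Benjamini-Hochberg adjusted p under 0.05). The median log2 fold change of the 10 genes was -0.0037 and that of all genes 0.

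TGFA, a high affinity EGFR ligand, had 6.87 and 8.09 CPM in the DU145 sensitive libraries and 101 and 79.9 CPM in the resistant ones. The groups were far apart, with a rise of 12.1-fold in mean CPM (log2 fold change 3.60 with a standard error of 0.19, edgeR adjusted p = 8.47e-07). HBEGF, the heparin-binding ligand of EGFR and ERBB4, had 13.1 and 10.9 CPM in sensitive and 91.5 and 123 CPM in resistant libraries. Its rise was 8.92-fold (log2 fold change 3.16, standard error 0.23, edgeR adjusted p = 7.84e-06), again without overlap.

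AREG and EREG stayed in overlapping ranges in DU145. EREG, epiregulin, had 117 and 153 CPM in sensitive and 123 and 153 CPM in resistant libraries (log2 fold change 0.03, standard error 0.18, edgeR adjusted p = 0.926). AREG, amphiregulin, had 16.3 and 12.2 CPM against 15.3 and 19.8 CPM (log2 fold change 0.30, standard error 0.26, edgeR adjusted p = 0.435). For both, the libraries of each group lay further apart than the group means did.

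NRG1, neuregulin, the ligand of ERBB3 and ERBB4, went the other way. It had 8.49 and 5.16 CPM (303 and 183 counts) in DU145 sensitive libraries and 0.121 and 0.0277 CPM (4 and 1 counts) in resistant ones. The pooled level was 94.3 times higher in the sensitive cells, with a 95% exact binomial interval of 40.1 to 292 that covers counting error only. The fitted log2 fold change, whose size depends on the prior count, was -6.49 and became -7.78 without DU145 resistant library 1 and -5.76 without DU145 resistant library 2, since the resistant level rests on 5 counts. NRG1 lies on chromosome 8 from 31639222 to 32855666, plus strand.

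Among the receptors of DU145, ERBB2 had 185 and 163 CPM in sensitive and 97.9 and 86.8 CPM in resistant libraries, 1.88-fold lower in the resistant cells without overlap (log2 fold change -0.91, standard error 0.13, edgeR adjusted p = 0.000548). ERBB3 had 39.9 and 46.7 CPM against 14.8 and 21.7 CPM, 2.37-fold lower (log2 fold change -1.25, standard error 0.23, edgeR adjusted p = 0.00242). The pair ERBB2 and ERBB3, which together form the main receptor complex of neuregulin, was thus lower in resistant DU145. A link with the fall of NRG1 was not tested, and ERBB2 was lower in resistant PC3 too (log2 fold change -1.14).

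EGFR and MET, on the same chromosome 7, were level in DU145. EGFR (chr7:55019017-55211628, plus strand) had 221 and 230 CPM in sensitive and 213 and 225 CPM in resistant libraries (log2 fold change -0.04, standard error 0.21, edgeR adjusted p = 0.922). MET (chr7:116672196-116798377, plus strand) had 215 and 185 CPM against 224 and 218 CPM, a difference that did not pass (log2 fold change 0.15, standard error 0.14, edgeR adjusted p = 0.479), although the groups did not overlap. ERRFI1 had 241 and 371 CPM against 217 and 379 CPM, so the libraries of each group differed far more than the groups (log2 fold change -0.04, standard error 0.36, edgeR adjusted p = 0.961).

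**Figure D1:**
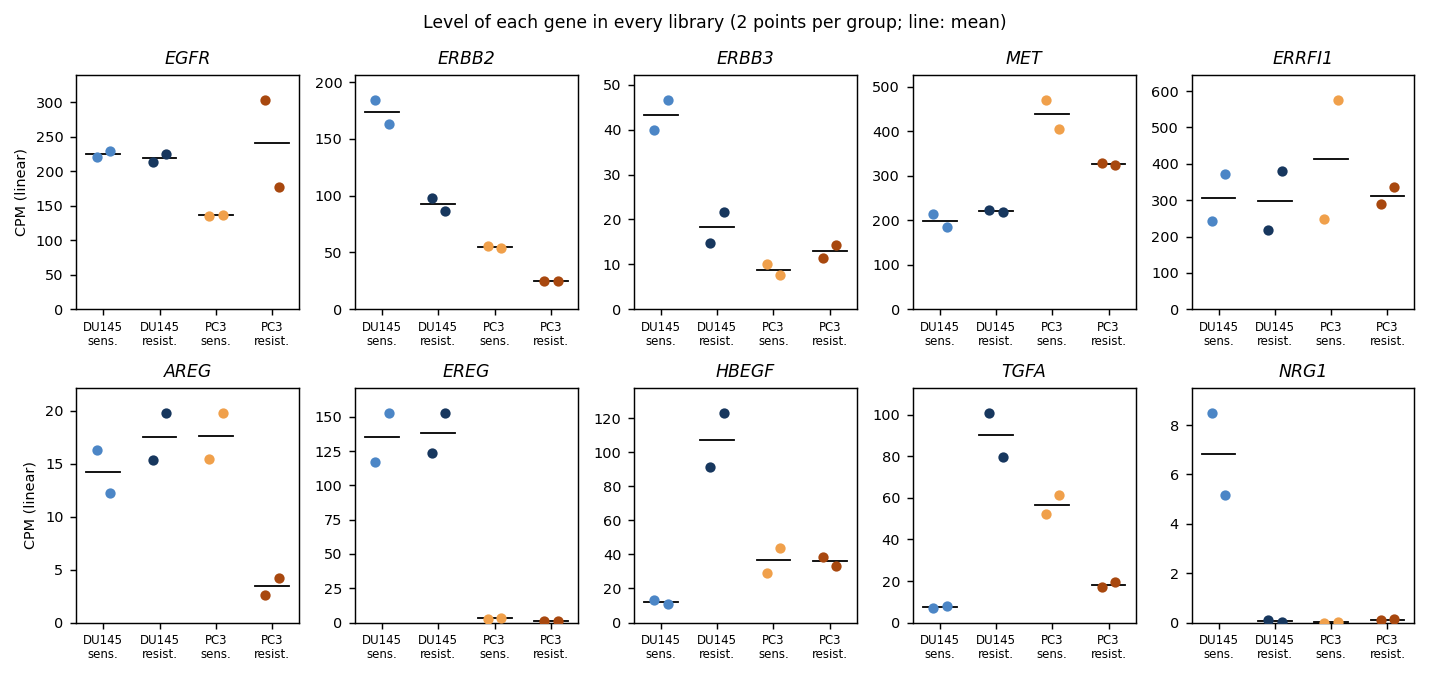
CPM (linear axes from 0) of each of the 10 genes in the 8 libraries, with 1 point per library and a line at the mean of the 2 libraries of a group. TGFA and HBEGF stand high in DU145 resistant and NRG1 in DU145 sensitive libraries, EREG is at most 3.31 CPM in PC3, and the 2 libraries of PC3 resistant EGFR and PC3 sensitive ERRFI1 lie far apart.

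The second question was the same comparison in PC3. In PC3, resistance went with lower AREG, EREG and TGFA, lower ERBB2 and slightly lower MET, and higher EGFR. Of the 10 genes, 1 was higher, against 18.6% of all genes tested, and 5 were lower, against 17.0%. The median log2 fold change of the 10 genes was -0.42 and that of all genes 0.01.

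AREG had 15.5 and 19.8 CPM in PC3 sensitive and 2.65 and 4.24 CPM in resistant libraries. It was 5.12-fold lower in the resistant cells, with no overlap (log2 fold change -2.36, standard error 0.28, edgeR adjusted p = 0.000124). TGFA had 52.1 and 61.6 CPM against 17.2 and 19.3 CPM, 3.12-fold lower (log2 fold change -1.64, standard error 0.17, edgeR adjusted p = 5.07e-05). TGFA thus rose in resistant DU145 cells and fell in resistant PC3 cells, and it was the 1 gene of the 10 called in opposite directions.

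EREG, the neighbour of AREG, was low throughout PC3, with 2.83 and 3.31 CPM in sensitive and 1.03 and 1.44 CPM in resistant libraries. It was 2.48-fold lower in the resistant cells (log2 fold change -1.32, standard error 0.24, edgeR adjusted p = 0.00192), again without overlap. HBEGF had 29.1 and 43.8 CPM against 38.3 and 33.4 CPM, with the resistant values between the sensitive ones (log2 fold change -0.02, standard error 0.21, edgeR adjusted p = 0.949). NRG1 was at the edge of detection, with 0 and 1 counts in sensitive and 5 and 5 counts in resistant libraries. The depth-scaled ratio of these counts was 7.57 with a 95% exact binomial interval of 1.08 to 328, for counting error only, and the edgeR test did not pass (adjusted p = 0.0942).

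ERBB2 had 55.7 and 53.7 CPM in PC3 sensitive and 24.8 and 24.7 CPM in resistant libraries. It was 2.21-fold lower (log2 fold change -1.14, standard error 0.13, edgeR adjusted p = 0.000102), and it was the 1 gene of the 10 called lower in both lines. ERBB3 had 10.1 and 7.58 CPM against 11.5 and 14.2 CPM, which did not overlap but did not pass (log2 fold change 0.54, standard error 0.23, edgeR adjusted p = 0.0921). ERBB2 (chr17:39687914-39730426, plus strand) shares exon sequence with PGAP3 and MIEN1 on the other strand. None of the sources used here gives the strand setting of the counting, so reads in the shared sequence cannot be told apart. MIEN1 had a log2 fold change of -0.19 in DU145 (edgeR adjusted p = 0.479) and -0.52 in PC3 (adjusted p = 0.0425). PGAP3 had -0.28 (adjusted p = 0.294) and -0.67 (adjusted p = 0.021), each smaller in size than that of ERBB2 in the same line.

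EGFR had 135 and 137 CPM in PC3 sensitive and 304 and 177 CPM in resistant libraries. Both resistant libraries were above both sensitive ones, but they differed widely from each other. The mean was 1.77-fold higher (log2 fold change 0.82, standard error 0.21, edgeR adjusted p = 0.0112). The call was lost without PC3 resistant library 1 (log2 fold change 0.38, adjusted p = 0.0915) and without PC3 sensitive library 1 (adjusted p = 0.067) or 2 (adjusted p = 0.061).

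MET had 471 and 406 CPM in PC3 sensitive and 329 and 324 CPM in resistant libraries. It was 1.34-fold lower without overlap (log2 fold change -0.43, standard error 0.14, edgeR adjusted p = 0.0353). This call was lost when any 1 of the 4 PC3 libraries was left out, with adjusted p of 0.256 and 0.0632 without PC3 sensitive library 1 and 2 and of 0.101 and 0.127 without PC3 resistant library 1 and 2. It was also lost without the low count filter (adjusted p = 0.0858). ERRFI1 had 249 and 576 CPM against 289 and 335 CPM, with the resistant values inside the sensitive range (log2 fold change -0.40, standard error 0.36, edgeR adjusted p = 0.426).

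**Figure D2:**
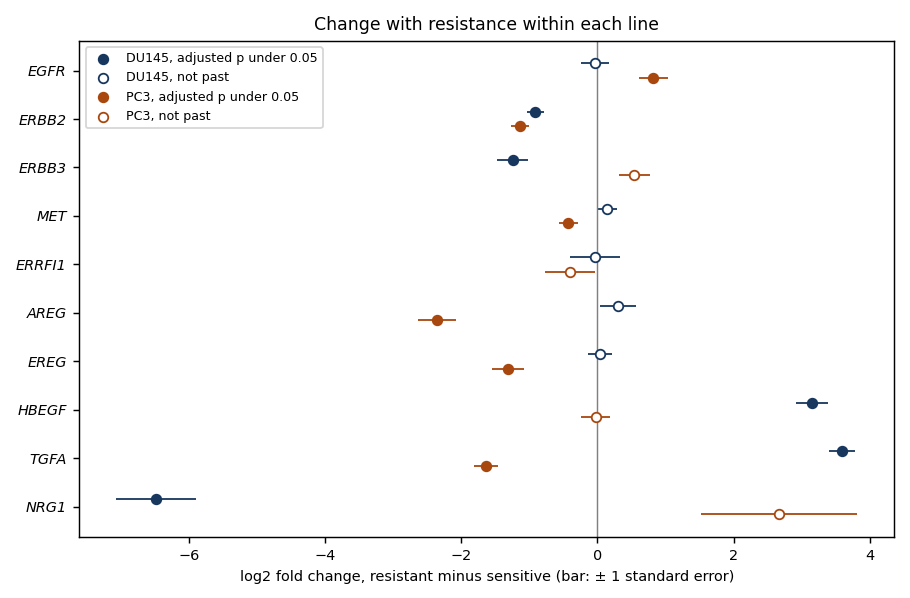
Log2 fold change of each of the 10 genes with resistance (resistant minus sensitive) in DU145 and in PC3, with bars of 1 standard error and filled points for an adjusted p under 0.05. TGFA lies to the right in DU145 and to the left in PC3, ERBB2 lies to the left in both, and the fitted NRG1 values have the longest bars.

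The third question was whether a gene changed by a different amount in the 2 lines, tested as the PC3 change minus the DU145 change in the same fit. This test shares its libraries with the comparisons above. Of the 10 genes, 3 had a higher value, NRG1 among them, against 18.5% of all genes tested, and 5 a lower one, against 15.9%, and the median was -0.47 for the 10 genes and 0.03 for all genes. The largest well counted difference was that of TGFA, at -5.23 on the log2 scale (standard error 0.25, edgeR adjusted p = 4.83e-07), followed by HBEGF at -3.18 (0.31, adjusted p = 3.68e-05) and AREG at -2.66 (0.38, adjusted p = 0.000457). EREG differed by -1.35 (standard error 0.30, adjusted p = 0.00593) and ERBB3 by 1.79 (standard error 0.32, adjusted p = 0.00187). For TGFA, HBEGF, AREG and EREG the PC3 change was thus the lower one, while BTC, an EGFR ligand outside the 10 genes, had a difference of 0.52 that did not pass.

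For ERBB2, which fell in both lines, the difference was -0.23 (standard error 0.18, edgeR adjusted p = 0.366), and for ERRFI1 it was -0.36 (standard error 0.52, adjusted p = 0.629). NRG1 differed by 9.16, a fitted size that rests on a PC3 sensitive group with 1 count in all and ran from 8.26 without PC3 sensitive library 1 to 11.7 without PC3 sensitive library 2. The differences of EGFR (0.86, standard error 0.29, adjusted p = 0.044) and MET (-0.57, standard error 0.20, adjusted p = 0.045) were close to the threshold. The EGFR call was lost in 7 of 12 alternatives, with adjusted p up to 0.137 and a difference of 0.42 without PC3 resistant library 1, and the MET call in 9 of 12, with adjusted p up to 0.189.

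The fourth comparison set the sensitive cells of the lines against each other, as the baseline of each line. PC3 sensitive cells had more TGFA, HBEGF and MET than DU145 sensitive cells and less EREG, NRG1, ERBB2, ERBB3 and EGFR. Of the 10 genes, 3 were higher in PC3, against 28.6% of all genes tested, and 5 were lower, NRG1 among them, against 29.2%, so calls were frequent among all genes too. The median log2 difference was -0.21 for the 10 genes and -0.03 for all genes.

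EREG had the widest well counted gap between the lines, 44-fold lower in PC3 (log2 difference -5.46, standard error 0.23, edgeR adjusted p = 1.97e-08). AREG, its neighbour 56.4 kb away, did not pass (log2 difference 0.30, standard error 0.26, edgeR adjusted p = 0.341), so the 2 adjacent ligand genes differed from each other in this comparison. NRG1 had 486 counts in the DU145 sensitive libraries and 1 in the PC3 sensitive ones, a depth-scaled ratio of 435 (95% exact binomial interval 77.7 to 17210, counting error only). Its fitted log2 difference of -8.47 ran from -7.57 without PC3 sensitive library 1 to -11.0 without PC3 sensitive library 2. TGFA was 7.60-fold higher in PC3 (log2 difference 2.93, standard error 0.18, edgeR adjusted p = 3.52e-07). HBEGF was 3.03-fold higher (log2 difference 1.60, standard error 0.22, edgeR adjusted p = 0.00012).

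Of the receptors at baseline, MET was 2.20-fold higher in PC3 (log2 difference 1.14, standard error 0.14, edgeR adjusted p = 5.35e-05). ERBB2 was 3.18-fold lower (log2 difference -1.67, standard error 0.13, adjusted p = 2.02e-06) and ERBB3 4.90-fold lower (-2.29, standard error 0.24, adjusted p = 1.45e-05). EGFR was 1.66-fold lower (log2 difference -0.73, standard error 0.21, adjusted p = 0.0118), a call lost without PC3 sensitive library 1 (adjusted p = 0.06) or 2 (adjusted p = 0.0538). ERRFI1 did not pass (0.43, standard error 0.36, adjusted p = 0.334), and its value ranged from -0.30 without PC3 sensitive library 2 to 0.91 without PC3 sensitive library 1, the latter with an adjusted p of 0.0396.

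The levels were then compared between the genes on the RPKM scale. ERRFI1 was the highest of the 10 genes in all 4 groups, with mean RPKM of 73.3 ± 22 in DU145 sensitive, 71.3 ± 27.4 in DU145 resistant, 98.7 ± 55.4 in PC3 sensitive and 74.6 ± 7.87 in PC3 resistant cells (SD, n = 2). It stood at the 96.8 to 97.7 percentile of the tested coding genes. MET was the next highest in 3 groups, with 27.6 ± 2.95 RPKM in DU145 sensitive, 60.7 ± 6.39 in PC3 sensitive and 45.2 ± 0.53 in PC3 resistant cells, and HBEGF took that place in DU145 resistant cells with 35.9 ± 7.46 RPKM. NRG1 was the lowest of the 10 in every group, at 0.319 ± 0.11 RPKM in DU145 sensitive cells and at most 0.0056 RPKM on average elsewhere.

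Neighbours in this order often lay within their spread. In DU145 sensitive cells MET (27.6 ± 2.95), EREG (23.6 ± 4.42) and ERBB2 (16.8 ± 1.48) followed ERRFI1, of which MET and EREG differed by less than the SD of EREG. With the length of the longest transcript in place of all exons, ERBB2 moved from place 4 to 2 and MET from 2 to 4 in this group, so the order of these 3 depends on the length used. In PC3 sensitive cells HBEGF (12.2 ± 3.47), TGFA (11.6 ± 1.37) and AREG (10.7 ± 1.84) were likewise closer to each other than their spread.

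The receptors shifted against each other. The ratio of EGFR to ERBB2 in RPKM was 0.774 and 0.913 in DU145 sensitive, 1.41 and 1.68 in DU145 resistant, 1.57 and 1.65 in PC3 sensitive and 7.93 and 4.63 in PC3 resistant libraries. In both lines, both resistant libraries thus had more EGFR per ERBB2 than both sensitive ones. The ratio of MET to EGFR was 2.15 and 1.77 in DU145 sensitive, 2.32 and 2.14 in DU145 resistant, 7.70 and 6.55 in PC3 sensitive and 2.39 and 4.04 in PC3 resistant libraries. It overlapped between the DU145 groups and did not overlap between the PC3 groups. With the length of the longest transcript it was 1.4 and 1.16 in the DU145 sensitive and 5.03 and 4.27 in the PC3 sensitive libraries, a fall by the same factor in all 8, so its size depends on the length used and its order among libraries does not.

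The make-up of the 5 ligand genes differed between the groups. EREG made up 56.0% and 67.3% of their summed RPKM in DU145 sensitive libraries, 26.3% and 27.8% in DU145 resistant libraries and at most 1.64% in any PC3 library. HBEGF made up 12% and 9.18% in DU145 sensitive, 37.3% and 42.8% in DU145 resistant, 32.2% and 36.8% in PC3 sensitive and 70.8% and 62.3% in PC3 resistant libraries. The HBEGF share was thus larger in the resistant cells of both lines, but its level rose in DU145 only. In PC3 the log2 fold change of HBEGF was -0.02, and its share rose as the summed RPKM fell. Likewise, the EREG share fell in DU145 as the sum rose, with a log2 fold change of EREG of 0.03.

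TGFA rose from 3.81% and 4.14% of the ligand sum in DU145 sensitive to 25.0% and 16.9% in DU145 resistant libraries and had 35.0% and 31.5% in PC3 sensitive and 19.3% and 21.9% in PC3 resistant libraries. AREG had 27.1% and 18.8%, 11.4% and 12.6%, 31.2% and 30.3%, and 8.90% and 14.4% in the same order. The sum itself was 36.6 and 39.7 RPKM in DU145 sensitive, 82.1 and 96.2 in DU145 resistant, 30.3 and 39.8 in PC3 sensitive and 18.1 and 17.9 in PC3 resistant libraries. It was highest in resistant DU145 and lowest in resistant PC3 cells, and the sensitive cells of the 2 lines overlapped.

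**Figure D3:**
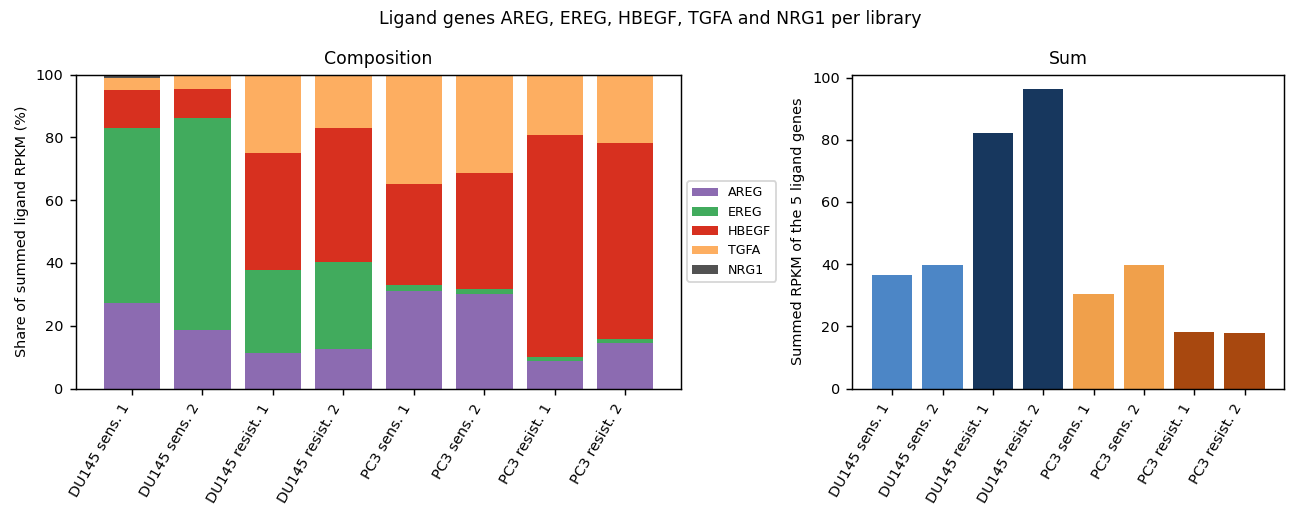
Left, share of each ligand gene in the summed RPKM of AREG, EREG, HBEGF, TGFA and NRG1 in each library (%), and right, that sum in RPKM. EREG fills the largest part of the DU145 sensitive bars (56.0% and 67.3%) and HBEGF of the PC3 resistant bars (70.8% and 62.3%), and the sum is highest in the DU145 resistant libraries (82.1 and 96.2 RPKM).

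Across the 8 libraries, genes averaging 8 CPM or more were ranked by how close their centred log2 CPM lay to that of a receptor, ligand or inhibitor gene. Closest to EGFR were ACAT2, HPS4 and MTR, at Euclidean distances of 0.41 to 0.48. Those closest to MET were FAM122B, JMJD4 and RANBP3, at 0.20 to 0.21. For AREG they were PHF11, BRSK2 and ADM, at 0.70 to 0.91, and for ERRFI1 SLC6A9, BTG1 and NMNAT1, at 0.63 to 0.65. The values were not scaled to each gene's own spread, so the distances cannot be compared between EGFR, MET, AREG and ERRFI1.

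For the pathway lists that follow, the shares of all genes tested were those given above, 12.4% higher and 15.4% lower with resistance in DU145 and 18.6% and 17.0% in PC3, and nothing in the lists was tested against them. Among other receptors and ligands of the ERBB family the highest level was 14.1 CPM, for NRG2 in PC3 resistant library 2. In that library AREG had 4.24 and EREG 1.44 CPM. Of 7 such genes 6 were tested, and in DU145 1 was higher and 2 were lower with resistance, while in PC3 2 were higher and 1 was lower. The 2 lower genes of DU145 became 1 without DU145 sensitive library 2 or either DU145 resistant library, and the 2 higher genes of PC3 became 1 without PC3 sensitive library 2. BTC, betacellulin, a further EGFR and ERBB4 ligand, was lower in the resistant cells of both lines, with 8.55 and 7.33 against 2.88 and 1.86 CPM in DU145 (log2 fold change -1.75, edgeR adjusted p = 0.00132) and 5.79 and 6.29 against 2.26 and 2.91 CPM in PC3 (-1.22, adjusted p = 0.0069). The PC3 call was lost without PC3 resistant library 1. NRG2, a relative of NRG1, was higher in resistant DU145, with 3.14 and 3.02 against 9.27 and 9.88 CPM (log2 fold change 1.64, adjusted p = 0.000675). ERBB4, the remaining receptor of the family, did not exceed 0.28 CPM in DU145 or PC3 sensitive libraries and had 1.17 and 1.64 CPM in PC3 resistant ones. It passed the low count filter through PC3 resistant cells alone, the group where it was high. Its call as 1 of the 2 higher genes of PC3 is therefore no independent support. ERBB4 was also 1 of the 2 lower genes of DU145 (log2 fold change -3.67), on at most 0.28 CPM, and is counted there only for completeness.

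HGF, the ligand of MET, had no count in any DU145 library and 0.152 to 0.745 CPM in PC3. The list on HGF and its activation also held protease inhibitors and the genes MST1 and MST1R, and had 8 tested genes. By edgeR 0 of these were higher and 3 were lower in resistant DU145 (0 higher at an unadjusted p under 0.05 or by DESeq2). In resistant PC3 2 were higher and 1 was lower. The 3 that fell in DU145 were MST1R, the receptor most like MET, from 18.5 and 23.4 to 1.00 and 1.39 CPM (log2 fold change -4.12, adjusted p = 1.7e-06), and the membrane protease inhibitors SPINT1 (-3.43, adjusted p = 2.8e-05) and SPINT2 (-1.92, adjusted p = 4.32e-06). MST1R was also lower in resistant PC3, with 44.9 and 54.4 against 18.4 and 21.7 CPM (-1.31, adjusted p = 0.000608). These 3 genes are epithelial in most tissues, and 6 of the 7 epithelial markers given above fell in DU145 resistant cells as well. In resistant PC3, where MST1R also fell, 3 of the 7 markers were higher and 0 were lower. A link between these genes and the markers was not tested. The 2 higher genes of PC3 became 1 without PC3 sensitive library 2 or PC3 resistant library 2. TMPRSS2, 1 of these 2, passed the low count filter through PC3 resistant cells alone, the group where it was high. It is counted only for completeness.

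Of 9 genes for the release of ligands, 3 were higher (12.4% of all genes) and 2 lower (15.4%) in resistant DU145, and 6 were higher (18.6%) and 1 lower (17.0%) in resistant PC3, where the 6 became 3 without PC3 sensitive library 2 and the 1 became 0 without either PC3 sensitive library or PC3 resistant library 1. ADAM12, a protease that can cut the HBEGF precursor, had 6.0 and 7.69 against 49.1 and 57.3 CPM in DU145 (log2 fold change 2.96, edgeR adjusted p = 5.12e-06) and 16.4 and 17.1 against 30.7 and 40.7 CPM in PC3 (1.09, adjusted p = 0.00141). ADAM19 rose in both lines too, by 1.98 in DU145 (adjusted p = 2.18e-05) and by 0.82 in PC3 (adjusted p = 0.00256). The largest rise of the list in resistant PC3 was that of ADAM9 (1.44, edgeR adjusted p = 2.48e-05), with 206 and 199 against 565 and 535 CPM. In DU145 ADAM9 did not pass (-0.07). Of the main sheddases, ADAM10 fell in DU145 (-0.86, adjusted p = 0.00356). ADAM17 had a log2 fold change of -0.03 in DU145, which did not pass, and was higher in resistant PC3 (0.56, adjusted p = 0.00768), with 47.5 and 47.2 against 67.3 and 71.9 CPM.

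Downstream of the receptors, the adaptor and RAS-MAPK relay list had 17 tested genes. In DU145, 0 were higher and 4 were lower with resistance by edgeR (0 higher also at an unadjusted p under 0.05 and by DESeq2), and in PC3 1 was higher and 9 were lower, with medians of -0.02 and -0.56. Beside these stand 12.4% higher and 15.4% lower of all genes in DU145 and 18.6% and 17.0% in PC3. The 9 became 5 without PC3 sensitive library 1, and the 1 higher gene was lost when any PC3 library was left out. NRAS, a RAS GTPase, had 55.1 and 51.4 CPM in PC3 sensitive and 6.55 and 5.28 CPM in PC3 resistant libraries (log2 fold change -3.17, adjusted p = 2.81e-07). SHC1, an adaptor that binds phosphorylated EGFR, was lower in resistant PC3 (-0.99, adjusted p = 0.00153), and MAPK3, the kinase ERK1, in resistant DU145 (-0.99, adjusted p = 0.000643).

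Of 12 tested genes of the PI3K, PLC and STAT relay, 3 were higher and 1 was lower in resistant DU145, and 1 was higher and 3 were lower in resistant PC3. The 3 higher genes of DU145 became 1 without DU145 sensitive library 2 or DU145 resistant library 1, and the 1 lower gene was lost without either DU145 sensitive library or DU145 resistant library 2. AKT1, the kinase downstream of PI3K, was called in both, with 108 and 114 against 206 and 150 CPM in DU145 (log2 fold change 0.68, edgeR adjusted p = 0.00902) and 145 and 139 against 59.6 and 64.0 CPM in PC3 (-1.20, adjusted p = 0.000267). PIK3R1, a regulatory subunit of PI3K, was higher in resistant PC3 (1.31, adjusted p = 0.000641). At baseline the transcription factors STAT5A (-7.52) and STAT5B (-8.46, edgeR adjusted p = 3.33e-09) were lower in PC3, both under 0.3 CPM in PC3 sensitive libraries. STAT5A passed the low count filter through DU145 cells alone, where it was high, so its baseline call is no independent support.

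The feedback list holds genes that damp the pathway or turn its receptors over, and had 19 tested genes. In resistant DU145 7 were higher and 1 was lower, and in resistant PC3 1 was higher and 6 were lower, with medians of 0.09 and -0.19. CBLC, among these 6, passed the low count filter through PC3 sensitive cells alone, the group where it was high. It is counted only for completeness. The 7 became 4 without DU145 sensitive library 1, the 1 lower gene of DU145 was lost under 8 of the alternatives, and the 1 higher gene of PC3 ranged from 0 to 4. SPRY4, an inhibitor of RAS-MAPK signalling, had 0.701 and 1.66 against 5.51 and 5.16 CPM in DU145 (log2 fold change 2.17, edgeR adjusted p = 0.00184) and 186 and 117 against 32.3 and 49.2 CPM in PC3 (-1.89, adjusted p = 0.00075). Like TGFA, SPRY4 was thus called higher in 1 line and lower in the other.

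DUSP6, the phosphatase of ERK, was higher in resistant DU145 (log2 fold change 1.86, edgeR adjusted p = 0.0116), as were SPRED2 (1.52, adjusted p = 2.09e-05) and CBL, the ubiquitin ligase of EGFR and MET (1.25, adjusted p = 0.000508). SPRY1 was higher in resistant PC3 (1.38, adjusted p = 0.0119), a call lost without PC3 sensitive library 2. ERRFI1, itself a feedback inhibitor of the receptors, passed in neither line.

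Of 10 genes that respond to MAPK signalling, 6 were higher and 1 was lower in resistant DU145 (median log2 fold change 0.85) and 1 was higher and 2 were lower in resistant PC3 (0.10). The 6 became 3 without DU145 sensitive library 1, and the 1 higher gene of PC3 became 4 and its 2 lower genes became 1 without single PC3 libraries, the first without resistant library 1 and the second without either sensitive library or resistant library 2. SPRY4 and DUSP6 belong to this list as well. ETV5, a transcription factor, had 26.2 and 49.9 against 121 and 117 CPM in DU145 (log2 fold change 1.64, edgeR adjusted p = 0.000869), and EPHA4, an ephrin receptor, fell in DU145 (-3.24, adjusted p = 5.79e-05) and rose in PC3 (2.70, adjusted p = 3.98e-05). CCND1, cyclin D1, was lower in resistant PC3 (-0.65, adjusted p = 0.023).

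At baseline, 8 of the 10 MAPK response genes were higher in PC3 sensitive than in DU145 sensitive cells and 1 was lower, with a median log2 difference of 1.76, and of the 19 feedback genes 11 were higher and 4 lower. Over all genes tested 28.6% were higher and 29.2% lower in this comparison, and the lists were not tested against that. SPRY4 differed by 7.0 (edgeR adjusted p = 1.77e-07), DUSP4 by 4.51 (adjusted p = 3e-07) and DUSP6 by 4.43 (adjusted p = 1.88e-05).

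**Figure D4:**
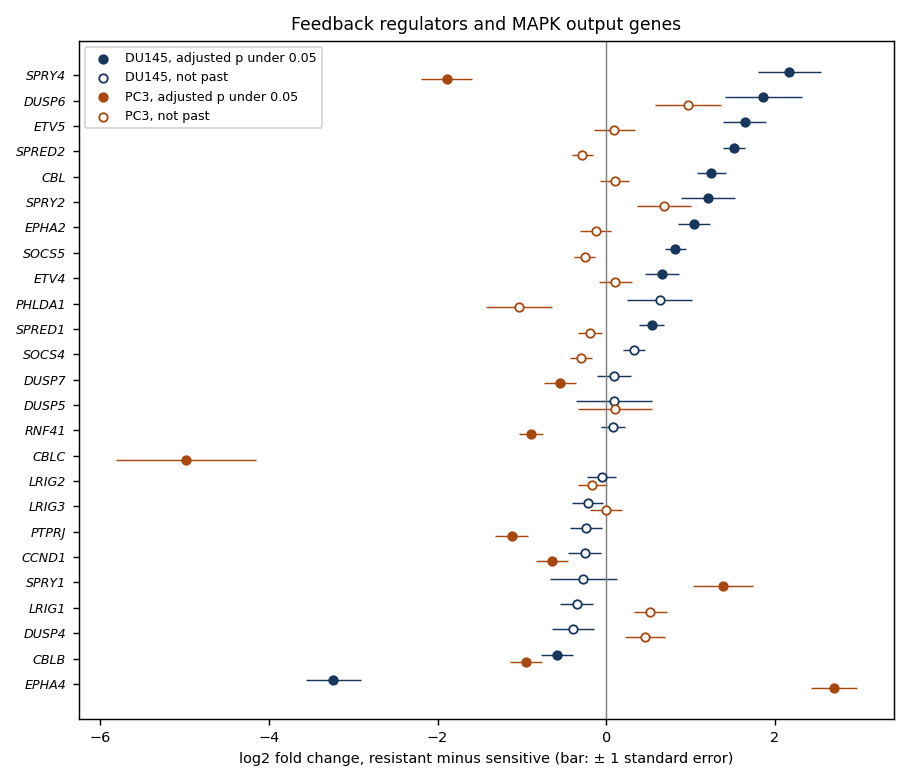
Log2 fold change with resistance (resistant minus sensitive) of the feedback and MAPK response genes in DU145 and PC3, ordered by the DU145 value, with bars of 1 standard error and filled points for an adjusted p under 0.05. SPRY4 lies at 2.17 in DU145 and -1.89 in PC3 and EPHA4 at -3.24 and 2.70, and no DU145 point is drawn for CBLC, which had no count in that line.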

How the data were processed

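The authors deposited raw counts per gene for each SMART-seq library, and the labels name Bowtie as aligner and hg38 as build. No source used here names the counter, annotation or strand setting. The paper's single cell libraries were not analysed here. The sample labels gave the groups. Of 60554 rows, 56558 matched GENCODE 44 by ID, which gave positions and exon lengths.

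Genes were filtered with edgeR's filterByExpr by group, leaving 20238, and counts were scaled by TMM (factors 0.951 to 1.038). The 8 libraries entered 1 model of 4 group means (edgeR 4.0.16, R 4.3.3), with 4 residual degrees of freedom and a common biological coefficient of variation of 17.1%. Contrasts were tested with edgeR's quasi-likelihood F test, and p-values were adjusted by Benjamini-Hochberg over all genes tested (threshold 0.05). Standard errors were derived from the fold change and its F statistic, as |log2 fold change| over the root of F. Folds are ratios of mean CPM, and RPKM used the union of annotated exons. The steps were tested on simulated data.

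The alternatives were RLE scaling, CPM without TMM, no low count filter, the libraries of a comparison alone, a replicate block, leaving out each library, DESeq2 1.42.0 and, for levels, the length of the longest transcript. Named were the 10 genes, up to 4 called genes of a pathway list per comparison (the largest changes, or without calls the most abundant), 3 genes of closest pattern for EGFR, MET, AREG and ERRFI1, and markers near 0 or defining the tissue. The text names fewer than this rule allows, and a few are not reported here. PGAP3, MIEN1, KDR and PECAM1 were named outside it, after their values were seen. The genes and the lists were chosen with earlier results of these data known.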

Additional observations from a re-analysis of the deposited data

Results flagged for a closer look

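These genes are listed because the test of the difference itself, the PC3 change minus the DU145 change with resistance in 1 edgeR fit, passed at an adjusted p under 0.05. Values are on the log2 scale. Among the ligands the difference was -5.23 for TGFA, -3.18 for HBEGF, -2.66 for AREG, -1.35 for EREG and 9.16 for NRG1, which rests on 1 count in PC3 sensitive cells and on a gene that passed the low count filter through DU145 sensitive cells alone. Among the receptors it was 1.79 for ERBB3, 0.86 for EGFR and -0.57 for MET, the last pair being lost in 7 and 9 of 12 alternatives.

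Of the related receptors and ligands, the difference was 7.51 for ERBB4 (at most 1.64 CPM in any library), 2.82 for MST1R and -1.67 for NRG2. The ERBB4 value is no independent support, since the gene passed the low count filter through PC3 resistant cells alone. The difference was 3.29 for SPINT1 and 2.05 for SPINT2. Of the proteases it was -1.87 for ADAM12, -1.16 for ADAM19, 1.52 for ADAM9 and 0.58 for ADAM17.

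Of the relay genes it was -3.44 for NRAS, -1.11 for SHC1, 1.24 for MAPK3, -1.88 for AKT1 and 1.02 for PIK3R1. Of the feedback and MAPK response genes it was -4.07 for SPRY4, -1.80 for SPRED2, -1.15 for CBL, 1.66 for SPRY1, -1.54 for ETV5 and 5.94 for EPHA4.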

How the results depend on the processing

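The calls of ERBB2, ERBB3, AREG, EREG, HBEGF, TGFA and NRG1 kept their side of the threshold in every comparison and alternative that gave a value, and DESeq2 kept all 40 calls of the 10 genes. The calls of EGFR, MET and ERRFI1 that changed are given with the results, and MET in the difference between lines was also lost under RLE scaling (adjusted p = 0.0513) and without the low count filter (adjusted p = 0.103), as edgeR gave them. The cause was not tested. Without that filter the PC3 log2 fold change of HBEGF turned from -0.023 to 0.011, and the ERRFI1 baseline passed (adjusted p = 0.0313). With 1 library left out, which leaves a lone library assumed to vary like the others, the values that changed sign ranged from -0.067 to 0.00076 for EGFR, -0.15 to 0.24 for EREG and -0.47 to 0.31 for ERRFI1 in DU145, and from -0.29 to 0.30 for HBEGF and -0.89 to 0.32 for ERRFI1 in PC3. ERRFI1 ranged from -0.85 to 0.36 in the difference and from -0.30 to 0.91 at baseline. Over all genes the counts ranged from 1459 to 2475 higher in DU145 and from 2362 to 3975 higher and 1999 to 3637 lower in PC3, and of the 10 genes 0 to 1 were higher in PC3. The labels tie the replicate numbers to nothing shared, so no pairing was used. The deviations of same-numbered libraries correlated at 0.323 in DU145 and 0.0861 in PC3. Several of the 10 genes followed the replicate number. ERRFI1 and EREG were higher, and ERBB2 and MET lower, in library 2 than in library 1 of all 4 groups. With the replicate block, the counts of higher and lower genes among the 10 were 2 and 3 in DU145, 1 and 5 in PC3, 3 and 5 in the difference and 3 and 5 at baseline, as without it. Over all genes the block gave 3228 higher and 3794 lower in DU145 (2513 and 3120 without it) and 4350 and 4188 in PC3 (3755 and 3441). The fit on a comparison's libraries alone was not run for the difference, and NRG1 in PC3 could not be fitted in it. The 2 libraries per group limit what can be called, and NRG1 outside DU145 sensitive cells is limited by depth.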
